A study of Homo sapiens with 6 samples.

Results

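Among the 22782 rows of each deposited expression table, 20474 were annotated genes and the others, 10.1% of the rows, carried no gene name and only an identifier that begins with MSTRG. StringTie, one of the tools the submitters' processing notes name, numbers loci and transcripts in this way when it merges transcripts assembled from the reads, and these rows were left without an annotated gene. The members were all rows whose identifier began with MSTRG, so no expression value entered their choice, and they comprised 1240 rows in an unbroken stretch of the table and 1068 rows interleaved with annotated genes. The number after the first point is that of the assembled locus and the number after the second point is that of a transcript of the locus, so MSTRG.26063.1 and MSTRG.26063.4 are alternative transcripts of a single locus. The tables used here pair them with no sequence and no genome position, so each is named by its identifier alone.

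Transcript assembly links overlapping and spliced reads into chains of exons, and the reads that alternative chains share are divided among them by estimation. Where transcripts of a locus overlap, each one's level is therefore an estimate that depends on the levels of the others. Transcripts outside the gene annotation can be unlisted isoforms, long noncoding RNAs, antisense RNAs, transcribed repeats or retained introns, and the tables do not say which of these a member is. In human cells many such RNAs are kept low by nuclear surveillance, in which the RNA exosome degrades transcripts that adaptor complexes bring to it.

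The cells were HCT116, a human colorectal cancer cell line. They were transfected with a non-targeting siRNA (sicontrol, genotype label WT) or with an siRNA against POU2F1 (siPOU2F1, genotype label POU2F1 knockdown), and RNA was taken after 48 h. POU2F1, also called OCT1, is a widely expressed transcription factor that binds the octamer motif and acts on genes transcribed by RNA polymerase II and III, snRNA genes among them. Each group held 3 libraries of polyadenylated RNA, made from 2 µg of total RNA each with a directional kit. Both groups passed through transfection, and the labels name no untransfected group. The labels do not say that the libraries came from separate cultures, so every p-value here reflects how far these libraries varied, and that variation could be technical. Levels are FPKM, the fragments of a transcript scaled to its length and to the mapped fragments of the library, and values of a group are always listed in the order of replicates 1, 2 and 3.

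The knockdown target stood at 4.16, 3.60 and 4.26 FPKM in sicontrol and at 1.87, 1.69 and 1.73 FPKM in siPOU2F1. POU2F1 was lower in all siPOU2F1 libraries, by a log2 difference of -0.99 (SE 0.15, n = 3 against 3, limma adjusted p = 0.0378 and exact two-sided permutation p = 0.1, the smallest that 3 against 3 can give). Its call was lost when any library other than siPOU2F1 replicate 3 was left out (adjusted p from 0.125 to 0.252). Of 15 colorectal epithelial markers 10 had a mean of at least 1 FPKM, EPCAM, KRT8 and KRT18 among them, whereas KRT20, CDX1, CEACAM5, CEACAM6 and LGR5 lay near 0. Their summed level was 3007 to 3849 FPKM in sicontrol and 3997 to 5595 FPKM in siPOU2F1. Of 20 markers of other cell types 3 had a mean of at least 1 FPKM, with 5.48 FPKM as the highest mean, and 6 were at 0 in every library.

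One siPOU2F1 library stood apart from the others of its group. Among the 735 members that were tested, 352 (47.9%) had a value in siPOU2F1 replicate 3 that lay inside the sicontrol range, against 254 (34.6%) for siPOU2F1 replicate 1 and 249 (33.9%) for replicate 2. Among 11831 annotated rows the shares were 42.7%, 25.7% and 25.7%. In 93 members (12.7%) siPOU2F1 replicates 1 and 2 were above the sicontrol range and replicate 3 was not, against 16.2% of annotated rows. In 153 members (20.8%) replicates 1 and 2 were below it and replicate 3 was not, against 23.0% of annotated rows. For named transcripts and loci whose call changes without this library, that value is given beside the result. The controls were not uniform either. Over tested members sicontrol replicate 3 correlated with siPOU2F1 replicate 1 at 0.762 (Pearson, log levels), and with sicontrol replicates 1 and 2 at 0.754 and 0.763. Over annotated rows these values were 0.967, 0.984 and 0.972.

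The first question was what the assembled rows contain. The members formed 1078 assembled loci. Of these, 595 loci had a single member and 483 had several, which together held 1713 members. The largest locus had 19 and 19 loci had at least 10. Transcript numbers have gaps, as in MSTRG.26011, which is listed only as MSTRG.26011.4. Any transcript of a locus without an MSTRG row is therefore left out of these counts and of every locus sum below. The annotated rows were nearly all coding genes. Of 20474 annotated rows 20242 were found in GENCODE release 29, and 19715 of those (97.4%) are protein coding there. Of 30 well-known noncoding RNAs, MALAT1, NEAT1, H19, GAS5 and TERC among them, only TUG1 had a row under its own name, although GENCODE release 29 holds all 30. Whether any of the other 29 is present under an MSTRG identifier cannot be read from the tables.

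The order of the rows divided the members into 2 classes. Neighbouring annotated rows lay on the same chromosome in 99.7% of cases, so the rows were grouped by chromosome. This share does not show their order within a chromosome. In the order of the rows 1068 members (46.3%, 523 loci) were interleaved with annotated genes, 1025 of them between genes of a single chromosome. Chromosomes 7, 1 and 17 had most, with 118, 103 and 97 members listed between their genes. The other 1240 members (53.7%, 555 loci) formed an unbroken stretch around the 13 mitochondrially encoded genes, 42 directly before them and 1198 directly after, with no annotated row in between. Their locus numbers ran from 25333 to 27664, and no locus had members in both classes. The stretch is a place in the table, and it does not place these loci on the mitochondrial genome or on any other sequence.

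Members were low as a class. The median of the mean level over the 6 libraries was 0.492 FPKM for members and 2.71 FPKM for annotated rows. It was 0.582 FPKM in the stretch and 0.420 FPKM among the interleaved members. Of the members, 735 (31.8%) reached a mean of 1 FPKM, against 57.8% of annotated rows. At the upper end 62 members had a mean of at least 10 FPKM, and the 11 with a mean of at least 50 FPKM all lay in the stretch. At the lower end 321 members (13.9%) were listed at 0 in every library, close to the 15.2% of annotated rows. A further 607 (26.3%) were at 0 in some libraries and above 0 in others, against 14.0% of annotated rows. A listed 0 can be a failed estimate as well as a lack of reads, and the files hold no counts to tell them apart.

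Fewer members reached 1 FPKM in siPOU2F1 replicates 1 and 2 than in any other library. The numbers were 745, 777 and 721 in sicontrol and 632, 654 and 732 in siPOU2F1. The mean was 748 ± 28.1 (SD, n = 3) in sicontrol and 673 ± 52.5 (SD, n = 3) in siPOU2F1, and replicate 3 lay within the sicontrol range, so the groups overlapped. The exact two-sided permutation p was 0.2. Interleaved members were likewise lowest in siPOU2F1 replicates 1 and 2, with 277, 297 and 277 in sicontrol and 208, 236 and 285 in siPOU2F1. As shares, 32.3%, 33.7% and 31.2% of members reached 1 FPKM in sicontrol and 27.4%, 28.3% and 31.7% in siPOU2F1. Of annotated rows 57.6%, 57.0% and 57.9% did so in sicontrol. In siPOU2F1 57.1%, 57.3% and 57.4% did, all within the sicontrol range. The counts of members listed at 0 were 551, 571 and 587 in sicontrol and 638, 620 and 558 in siPOU2F1. Annotated rows listed at 0 were 22.4%, 22.0% and 22.5% in sicontrol and 24.5%, 23.2% and 22.2% in siPOU2F1, which places the same libraries highest, and the part of depth in this was not tested.

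**Figure D1:**
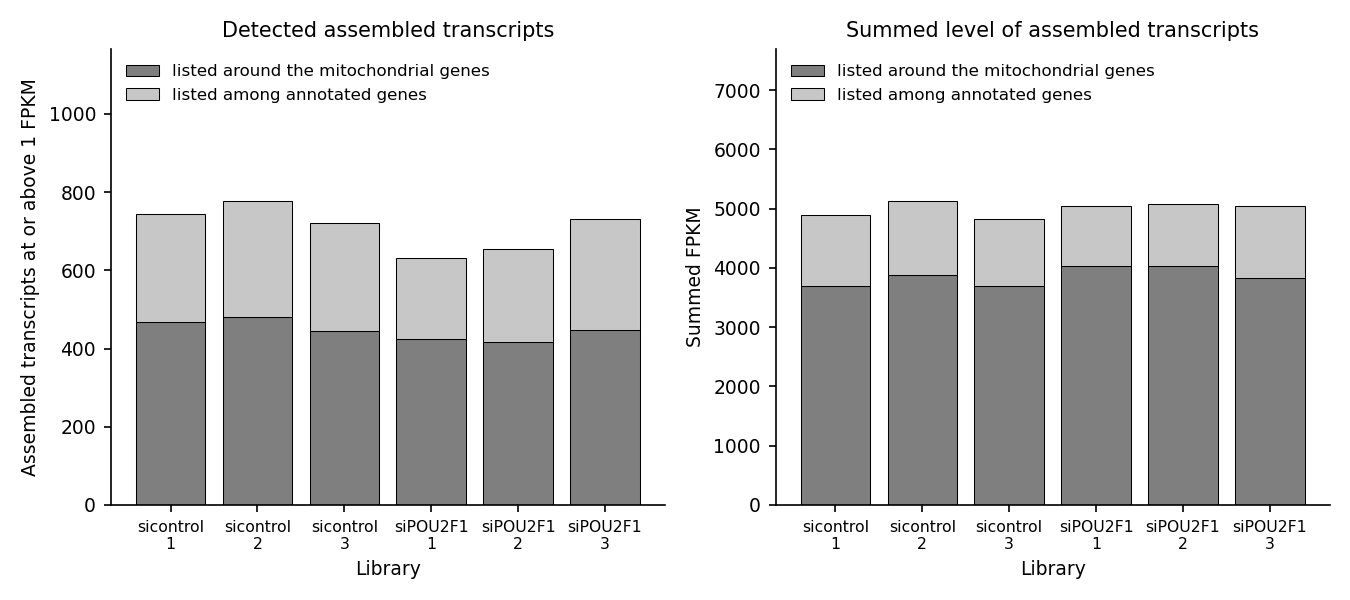
Stacked bars give, for each library, the number of assembled transcripts at or above 1 FPKM (left) and the summed FPKM of all assembled transcripts (right), divided by place in the table. The left bars are lowest in siPOU2F1 replicates 1 and 2 (632 and 654 members), while the right bars stay between 4826 and 5126 FPKM in all 6 libraries.

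The summed level of the members did not follow their number. All members together made up 1.24%, 1.30% and 1.18% of the FPKM sum in sicontrol and 1.24%, 1.25% and 1.26% in siPOU2F1, so the siPOU2F1 values lay within the sicontrol range. Members of the stretch summed to 3686, 3876 and 3689 FPKM in sicontrol and to 4038, 4028 and 3831 FPKM in siPOU2F1. Interleaved members summed to 1210, 1251 and 1137 FPKM in sicontrol and to 1011, 1049 and 1215 FPKM in siPOU2F1. In each class siPOU2F1 replicates 1 and 2 lay outside the sicontrol range, above it for the stretch and below it for the interleaved members, and replicate 3 lay inside. A single transcript carried the higher sum of the stretch. Without MSTRG.25464.1 the stretch summed to 3321, 3509 and 3195 FPKM in sicontrol and to 3180, 3211 and 3378 FPKM in siPOU2F1. In these bulk libraries fewer cells that hold a transcript and less of it per cell cannot be told apart.

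MSTRG.25464.1 was the most abundant member. It stood at 365, 366 and 494 FPKM in sicontrol and at 858, 817 and 454 FPKM in siPOU2F1. siPOU2F1 replicates 1 and 2 were far above every control and replicate 3 lay among the controls. The log2 difference was 0.76 (SE 0.26, n = 3 against 3, limma adjusted p = 0.217), so it was not called. It was called without siPOU2F1 replicate 3, with a log2 difference of 1.05 (limma adjusted p = 0.0124).

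The other 5 of the 6 most abundant members were not called with all libraries. MSTRG.25983.1, the third by mean level, was at 131, 130 and 158 FPKM in sicontrol and at 226, 200 and 143 FPKM in siPOU2F1, again with replicate 3 inside the control range. Its difference had the same sign (log2 difference 0.42, limma adjusted p = 0.300) and was called without that replicate (limma adjusted p = 0.0228). MSTRG.27144.1, the second by mean level, was at 300, 305 and 281 FPKM in sicontrol and at 266, 286 and 298 FPKM in siPOU2F1, and these ranges overlapped. MSTRG.26011.4 was at 92.8, 107 and 93.2 FPKM in sicontrol and at 75.7, 76.4 and 97.9 FPKM in siPOU2F1. Its siPOU2F1 replicates 1 and 2 were below all controls and replicate 3 was between them. It too was called without that replicate (log2 difference -0.35, limma adjusted p = 0.0470). MSTRG.27271.1 was at 74.2, 84.4 and 79.8 FPKM against 72.1, 69.3 and 76.7 FPKM, and MSTRG.26577.1 at 65.2, 67.2 and 71.7 FPKM against 68.3, 60.2 and 92.2 FPKM. The groups of both overlapped, and neither these nor MSTRG.27144.1 were called without siPOU2F1 replicate 3. Each of these 6 transcripts is the only member of its locus. In the order of their mean levels, the ranges of the top 3 did not overlap with each other, while the ranges of MSTRG.26011.4, MSTRG.27271.1 and MSTRG.26577.1 ran into each other.

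**Figure D2:**
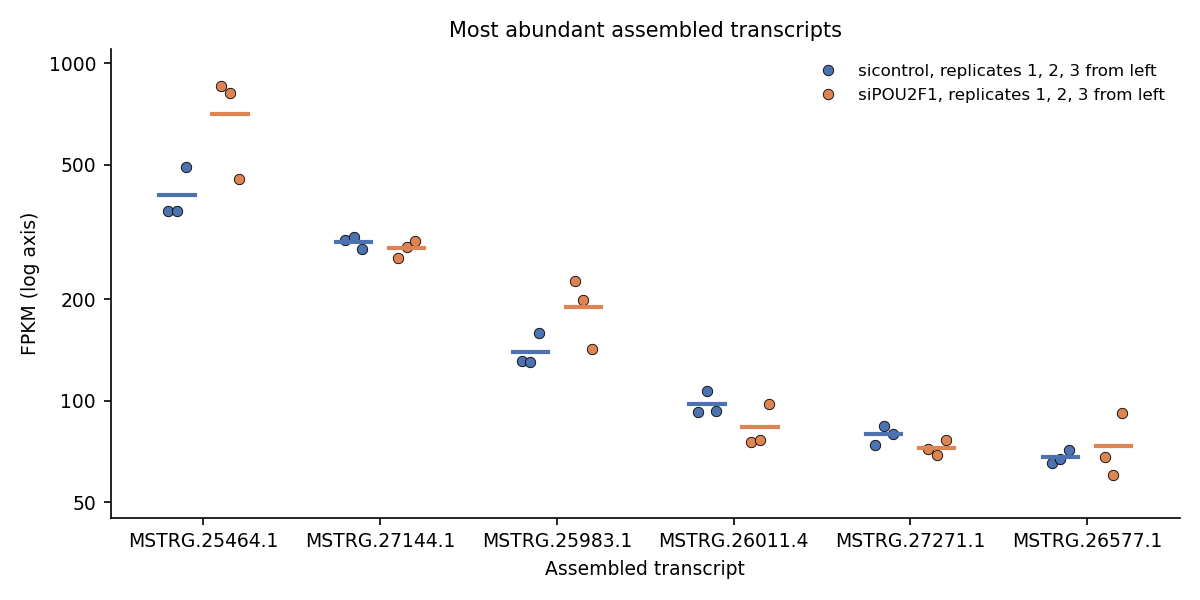
FPKM on a log axis of the 6 assembled transcripts with the highest mean, with 1 point per library and the group mean as a line. For MSTRG.25464.1 siPOU2F1 replicates 1 and 2 (858 and 817 FPKM) lie above the controls (365 to 494 FPKM) and replicate 3 (454 FPKM) lies among them, and MSTRG.25983.1 shows the same order.

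The comparison of siPOU2F1 with sicontrol was fitted over all 12566 rows with a mean of at least 1 FPKM, members and annotated rows together, as log2(FPKM + 0.5), and a row was called at an adjusted p under 0.05. The added 0.5 keeps rows at 0 on the scale and understates the change of low rows. Of the 735 members tested, 3 were called (0.408%), while 1.03% of all rows tested were called. Of the 3, 2 were higher in siPOU2F1, with 0.326% of all rows higher, and 1 was lower, with 0.700% of all rows lower. At an unadjusted p under 0.05 there were 90 members (12.2%), 30 higher and 60 lower, against 17.5% of all rows. The 3 called members all lay in the stretch, where 470 were tested. None of the 265 interleaved members tested was called by limma, and 32 of them had an unadjusted p under 0.05.

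Counts that need no model were taken as well. The sicontrol and siPOU2F1 values did not overlap in 102 members (13.9%), 41 higher and 61 lower, against 22.8% of all rows tested. The fitted difference reached 1 on the log2 scale, in either direction, in 68 members (9.25%), against 2.23% of all rows. No test was made of either gap. The median log2 difference was -0.07 over the members and -0.01 over all rows tested, and 415 of the 735 members were below 0. It was -0.04 in the stretch and -0.14 among the interleaved members.

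**Figure D3:**
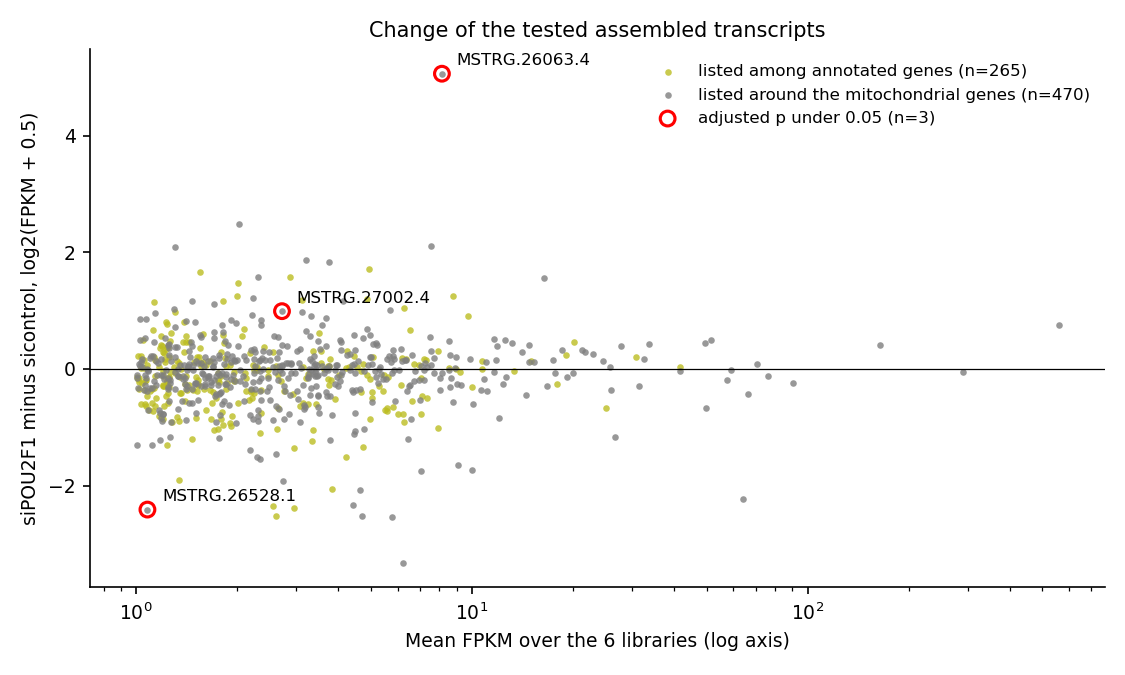
The log2(FPKM + 0.5) difference of siPOU2F1 minus sicontrol is plotted against the mean FPKM (log axis) for the 735 tested assembled transcripts, with the 3 called ones ringed. Many transcripts with differences beyond 1 are not called, and the heights of MSTRG.26063.4 and MSTRG.26528.1 depend on the added 0.5 because each has a group at 0.

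Leaving out siPOU2F1 replicate 3 raised the number of calls across the whole table. Then 116 members were called (15.8%), with 22.4% of all rows called. Of these, 32 were higher, with 7.95% of all rows higher, and 84 were lower, with 14.4% of all rows lower. The stretch gave 22 higher and 38 lower members, and the interleaved class gave 10 higher and 46 lower. In 45 of the 116 (38.8%) the value of siPOU2F1 replicate 3 lay inside the sicontrol range, and in 76 (65.5%) it was on the same side of the sicontrol mean as the other 2 siPOU2F1 libraries. All 3 members called with every library were among the 116.

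Each of the 3 calls belonged to a locus with further assembled transcripts, at least 1 of which had a mean that went the other way without being called. MSTRG.26063.4 was listed at 0 in all 3 sicontrol libraries and stood at 13.8, 17.6 and 17.4 FPKM in siPOU2F1 (limma adjusted p = 0.00015). No fold is given, since the control value is a listed 0. This member was called in all 19 alternative settings that tested single transcripts, those without any 1 library included (limma adjusted p from 6.9e-06 to 0.0239). It reached the level filter through siPOU2F1 only, and its listed 0s give sicontrol no spread. These p-values therefore do not show that the listed 0 is a lack of reads, and the settings are no separate support.

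The other transcripts of this locus, named after their values were seen, did not share its pattern. MSTRG.26063.1 was at 0.512, 26.2 and 22.2 FPKM in sicontrol and at 6.74, 0 and 4.12 FPKM in siPOU2F1. MSTRG.26063.2 was at 16.0, 1.07 and 1.79 FPKM in sicontrol and at 0.874, 2.13 and 0.790 FPKM in siPOU2F1. A different transcript led in sicontrol replicate 1 than in sicontrol replicates 2 and 3. The summed level of the members of this locus was 16.5, 27.3 and 24.0 FPKM in sicontrol and 21.4, 19.8 and 22.3 FPKM in siPOU2F1. The sums overlapped, with a log2 difference of -0.07 (SE 0.19, 95% interval -0.51 to 0.38, n = 3 against 3, limma adjusted p = 0.864, and 0.727 without siPOU2F1 replicate 3).

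MSTRG.26528.1 had the reverse pattern. It stood at 2.25, 2.16 and 2.08 FPKM in sicontrol and was listed at 0 in all 3 siPOU2F1 libraries (limma adjusted p = 0.0121). This call was lost when any library other than siPOU2F1 replicate 3 was left out (adjusted p from 0.0591 to 0.122) and was kept without that replicate (adjusted p = 0.00522). MSTRG.26528.1 reached the level filter through sicontrol only, and its listed 0s give siPOU2F1 no spread. Its partner MSTRG.26528.2 was at 0.588, 0.592 and 0.674 FPKM in sicontrol and at 1.64, 1.58 and 1.36 FPKM in siPOU2F1, with no overlap between groups, and was not called (limma adjusted p = 0.0934). It was called without siPOU2F1 replicate 3 (log2 difference 0.92, limma adjusted p = 0.0219). MSTRG.26528.2 reached the level filter through siPOU2F1 only. A further transcript of the locus, MSTRG.26528.7, was at 0.285, 0.334 and 0.383 FPKM in sicontrol and at 0.915, 0.847 and 0.472 FPKM in siPOU2F1, and lay under the level needed for the test. All 8 members of the locus summed to 3.31, 3.18 and 3.25 FPKM in sicontrol and to 2.76, 2.60 and 1.98 FPKM in siPOU2F1. The sums did not overlap, but their difference was not called (log2 difference -0.36, SE 0.16, limma adjusted p = 0.297, and 0.203 without siPOU2F1 replicate 3).

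MSTRG.27002.4 was the remaining call. It was at 1.80, 1.45 and 1.72 FPKM in sicontrol and at 3.89, 3.49 and 3.95 FPKM in siPOU2F1, higher in all 3 siPOU2F1 libraries. The log2 difference was 0.99 (SE 0.15, 95% interval 0.63 to 1.35, n = 3 against 3, limma adjusted p = 0.0416). Without filtering low rows the adjusted p was 0.0805, and when any library other than siPOU2F1 replicate 3 was left out it was 0.121 to 0.212. Without that replicate it was 0.0151. Its partner MSTRG.27002.1, the member with the next lowest p among those that were lower, was at 3.70, 3.79 and 2.60 FPKM in sicontrol and at 0.898, 0.653 and 1.44 FPKM in siPOU2F1. These groups did not overlap either, and the difference was not called (log2 difference -1.39, SE 0.25, limma adjusted p = 0.0650). Without siPOU2F1 replicate 3 it was called (log2 difference -1.59, limma adjusted p = 0.0109). The siPOU2F1 mean of MSTRG.27002.1 was 0.998 FPKM, so it reached the level filter through sicontrol. The 5 members of the locus summed to 5.51, 5.28 and 4.40 FPKM in sicontrol and to 4.80, 4.14 and 5.43 FPKM in siPOU2F1. The sums overlapped, with a log2 difference of -0.07 (SE 0.15, 95% interval -0.44 to 0.29, limma adjusted p = 0.807, and 0.438 without siPOU2F1 replicate 3).

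**Figure D4:**
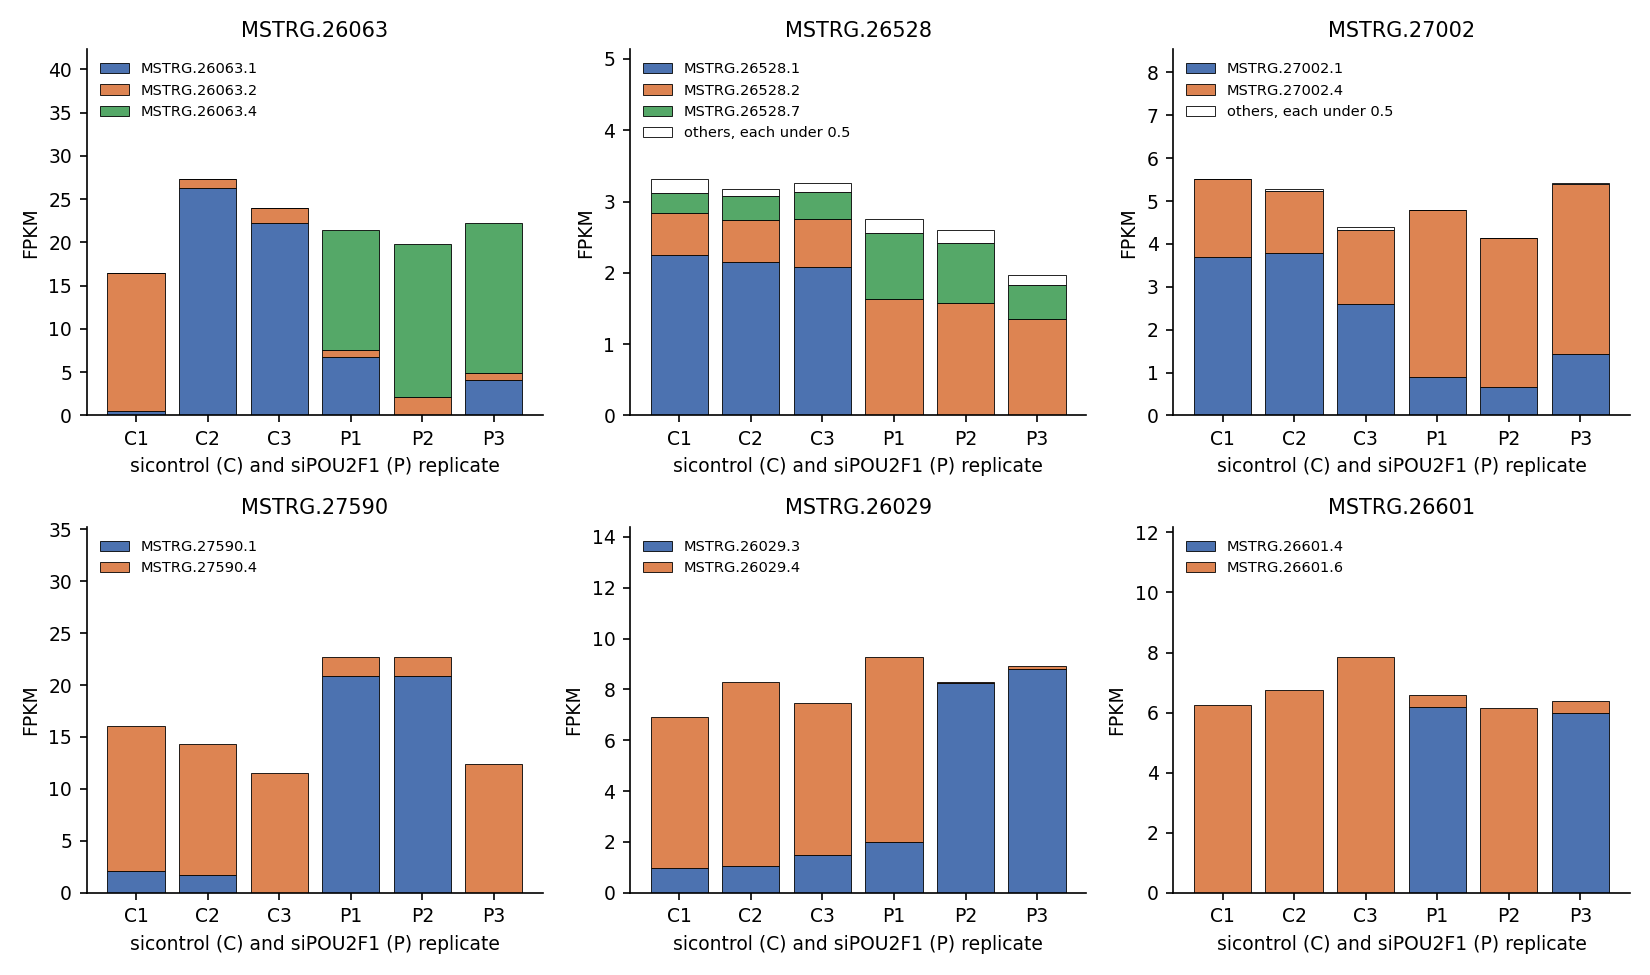
Stacked bars give the FPKM of each member of 6 loci in sicontrol (C) and siPOU2F1 (P) replicates 1 to 3, so the bar height is the sum of the members. In the upper row the transcript that fills most of the bar in siPOU2F1 is not the one that does so in sicontrol, and in the lower row the transcript that leads differs among the siPOU2F1 libraries, as for MSTRG.27590 with 20.8, 20.8 and 0 FPKM of MSTRG.27590.1.

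Other loci, named after their values were seen, exchanged transcripts in some siPOU2F1 libraries and not in others. In MSTRG.27590, MSTRG.27590.1 was at 2.07, 1.71 and 0 FPKM in sicontrol and at 20.8, 20.8 and 0 FPKM in siPOU2F1, while MSTRG.27590.4 was at 14.0, 12.6 and 11.5 FPKM and at 1.92, 1.89 and 12.4 FPKM. Here siPOU2F1 replicate 3 had the transcript of the controls, and both transcripts were called without it (limma adjusted p = 0.0176 and 0.0029). In MSTRG.26029 the odd library was siPOU2F1 replicate 1. There MSTRG.26029.4 was at 5.93, 7.23 and 5.98 FPKM in sicontrol and at 7.28, 0.0280 and 0.120 FPKM in siPOU2F1, while the locus summed to 6.90, 8.31 and 7.45 FPKM and to 9.29, 8.28 and 8.90 FPKM. In MSTRG.26601 it was siPOU2F1 replicate 2, since MSTRG.26601.6 was at 6.24, 6.77 and 7.87 FPKM in sicontrol and at 0.408, 6.15 and 0.417 FPKM in siPOU2F1. Each of the 3 siPOU2F1 libraries was thus the odd one in some locus. In each of these loci the odd library shared the leading transcript of every sicontrol library.

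Exchanges of this kind also occurred among the control libraries. The 2 members with the greatest spread within groups, among those with a mean of at least 5 FPKM, were MSTRG.26970.6 and MSTRG.26544.2. MSTRG.26970.6 was at 0.00529, 17.6 and 0 FPKM in sicontrol and at 17.4, 0 and 0 FPKM in siPOU2F1, so it passed 1 FPKM in 1 library of each group. Its locus summed to 33.4, 31.2 and 20.4 FPKM in sicontrol and to 20.3, 15.5 and 22.9 FPKM in siPOU2F1. MSTRG.26544.2 was at 56.1, 6.21 and 5.23 FPKM in sicontrol and at 3.88, 0 and 88.6 FPKM in siPOU2F1. Its partner MSTRG.26544.1 was at 39.9, 126 and 83.3 FPKM in sicontrol and at 62.8, 71.9 and 0.410 FPKM in siPOU2F1, high where the other was low. The sum of this locus varied far less, from 66.7 to 132 FPKM.

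The same was then measured over all loci with several tested transcripts. There were 127 loci with at least 2 tested transcripts, 305 members in all. If the transcripts of a locus varied independently, the variance of their sum would on average equal the sum of their variances. Transcripts that offset each other lower this ratio. With 6 libraries a ratio below 1 in a single locus does not by itself show offsetting. The median ratio was 0.610 over the 127 loci, and it was under 1 in 79 of them (62.2%) and under 0.5 in 58 (45.7%). For 556 neighbouring tested members of different loci the median was 1.01 and 53 (9.53%) were under 0.5. For 5915 pairs of neighbouring annotated rows it was 1.03, with 2706 (45.7%) under 1 and 621 (10.5%) under 0.5. These are descriptions over loci that share the same 6 libraries.

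The transcript with the highest level was the same in all 6 libraries in 38 of the 127 loci (29.9%). In 86 (67.7%) it differed between libraries of the same group. In 3 (2.36%) it was the same within each group and differed between the groups. These were MSTRG.26528, MSTRG.27002 and MSTRG.24433. In the last, MSTRG.24433.4 was at 0.742, 0.737 and 0.922 FPKM in sicontrol and at 4.19, 3.46 and 2.01 FPKM in siPOU2F1, with no overlap (log2 difference 1.47, limma adjusted p = 0.0643, and 1.73 with 0.0073 without siPOU2F1 replicate 3, when it was called). The sicontrol mean of MSTRG.24433.4 was under 1 FPKM, so it reached the level filter through siPOU2F1 only. MSTRG.24433.5 was at 1.20, 1.68 and 1.40 FPKM in sicontrol and at 1.63, 2.26 and 0 FPKM in siPOU2F1.

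Members of loci with several members varied more between replicate libraries than members that were the only one listed for their locus. The median SD within groups of log2(FPKM + 0.5) was 0.33 for the 735 tested members and 0.20 for annotated rows. It was 0.24 for the 244 tested members of loci with a single member and 0.43 for the 491 of loci with several. Members of loci with several had the higher median in each range of level. At a mean of 2 to 5 FPKM it was 0.23 for 68 single members, 0.45 for 183 members of loci with several and 0.25 for 2098 annotated rows. At 10 FPKM and above it was 0.23 for 37, 0.30 for 25 and 0.18 for 6328 rows. A listed 0 in at least 1 library was found in 1 of the 244 single members and in 85 of the 491 others (17.3%).

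**Figure D5:**
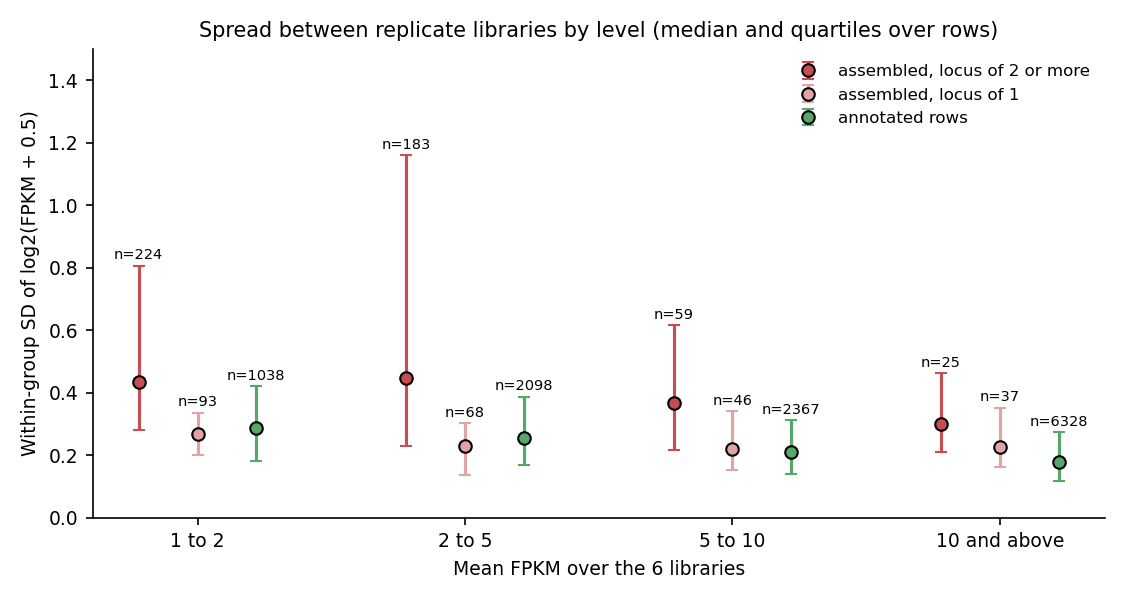
Points give the median, and bars the quartiles, over rows of the SD within groups of log2(FPKM + 0.5), in 4 ranges of mean FPKM. Members of loci with 2 or more members have the highest median in each range (0.43, 0.45, 0.37 and 0.30). Members that are the only one listed for their locus lie near annotated rows.

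Members that were on in one group and off in the other were few. Listed at 0 in all libraries of a group and at or above 1 FPKM in all of the other were 2 members, MSTRG.26063.4 and MSTRG.26528.1, and 1 annotated row, or 0.0132% of all rows. With the upper limit at 0.5 FPKM there were 4 members and 2 annotated rows (0.0263% of all rows). The added members were MSTRG.7773.1 and MSTRG.7773.4, alternative transcripts of an interleaved locus. MSTRG.7773.1 was at 0 in sicontrol and at 1.17, 0.895 and 1.36 FPKM in siPOU2F1, and MSTRG.7773.4 was at 0.893, 1.13 and 1.23 FPKM in sicontrol and at 0 in siPOU2F1. The 2 summed to 0.893, 1.13 and 1.23 FPKM in sicontrol and to 1.17, 0.895 and 1.36 FPKM in siPOU2F1, so their sum overlapped between groups. With any value above 0 in the higher group there were 9 members and 69 annotated rows (0.342% of all rows).

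To set the loci beside single genes, the members of each locus were summed and the sums were fitted with the annotated rows. This choice was made after the transcript results were seen, and transcripts without an MSTRG row are not in the sums. Of 627 loci with a mean sum of at least 1 FPKM none was called by limma, with 0.987% of all rows in that fit called. At an unadjusted p under 0.05 there were 85 loci (13.6%), 22 higher and 63 lower, against 17.9% of all rows. A log2 difference of at least 1 in size was found in 14 loci (2.23%), against 1.81% of all rows, where 9.25% of single transcripts had one. The median log2 difference was -0.07 over all loci and -0.16 over the 242 interleaved loci, of which 155 were below 0.

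The 6 loci with the lowest p were all lower in siPOU2F1 and none was called. MSTRG.25345, with 16 members in the stretch, summed to 9.29, 14.3 and 5.31 FPKM in sicontrol and to 1.23, 1.49 and 2.36 FPKM in siPOU2F1, a log2 difference of -2.14 (SE 0.36, limma adjusted p = 0.0508). Its groups did not overlap, and MSTRG.25345.18 was its most abundant member, at 4.08, 7.01 and 2.85 FPKM in sicontrol and at 0.645, 0.527 and 1.29 FPKM in siPOU2F1 (limma adjusted p = 0.0650, and 0.0139 without siPOU2F1 replicate 3). MSTRG.25345.18 had a siPOU2F1 mean of 0.821 FPKM and reached the level filter through sicontrol only. MSTRG.27664 had the last locus number of the stretch and summed to 4.72, 5.84 and 2.25 FPKM in sicontrol and to 0.525, 0.751 and 1.15 FPKM in siPOU2F1 (log2 difference -1.81, limma adjusted p = 0.0664). In this locus all 3 members were lower in every siPOU2F1 library than in every control. Its sum had a siPOU2F1 mean of 0.808 FPKM and reached the level filter through sicontrol only. MSTRG.25690, with a single member, was at 3.87, 3.52 and 3.78 FPKM in sicontrol and at 2.26, 1.74 and 1.98 FPKM in siPOU2F1 (log2 difference -0.76, limma adjusted p = 0.0684).

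Next in order came a pair of interleaved loci and a further one of the stretch. MSTRG.23448 summed to 3.18, 2.46 and 1.77 FPKM in sicontrol and to 0.449, 0.580 and 1.06 FPKM in siPOU2F1 (log2 difference -1.32, limma adjusted p = 0.0762). Its siPOU2F1 mean of 0.696 FPKM means that it reached the level filter through sicontrol only. MSTRG.10157 summed to 8.94, 10.4 and 8.10 FPKM in sicontrol and to 4.16, 3.82 and 6.15 FPKM in siPOU2F1 (log2 difference -0.91, limma adjusted p = 0.0854). MSTRG.25858 summed to 6.13, 6.49 and 6.22 FPKM in sicontrol and to 4.02, 4.22 and 4.32 FPKM in siPOU2F1 (log2 difference -0.53, limma adjusted p = 0.0906). In all 6 loci the groups did not overlap, so siPOU2F1 replicate 3 was also below every control. The choice by lowest p in the same libraries favours this. Of all 627 loci tested, 99 (15.8%) did not overlap, against 23% of all rows in that fit. Without siPOU2F1 replicate 3 each of the 6 was called, with limma adjusted p from 0.0077 for MSTRG.10157 to 0.0213 for MSTRG.25858.

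Without siPOU2F1 replicate 3, 141 locus sums were called (22.5%), with 24.8% of all rows called. Of these, 34 were higher, with 9.05% of all rows higher, and 107 were lower, with 15.7% of all rows lower. The stretch had 21 higher and 50 lower loci, and the interleaved class had 13 higher and 57 lower.

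Genes that act on such RNAs were given by a list of 52 annotated genes for the exosome, its adaptors, nonsense-mediated decay, the Integrator complex and related factors. Of the 51 tested, none was called higher and 1 (1.96%) lower by limma, against 0.700% of all rows lower, and 5 (9.80%) had an unadjusted p under 0.05, against 17.5% of all rows. Without siPOU2F1 replicate 3, 2 (3.92%) were called higher and 11 (21.6%) lower, against 7.95% and 14.4% of all rows. Their median log2 difference was -0.12, with 31 below 0. The gene called was PAPOLA, the poly(A) polymerase of mRNA processing, at 96.5, 99.2 and 91.5 FPKM in sicontrol and at 47.8, 48.3 and 52.8 FPKM in siPOU2F1. It was lower in all siPOU2F1 libraries (log2 difference -0.94, SE 0.09, limma adjusted p = 0.0161), and its call was lost when any library other than siPOU2F1 replicate 3 was left out (adjusted p from 0.0778 to 0.122) and kept without that replicate (adjusted p = 0.0059). RBM7, an RNA-binding subunit of the NEXT complex that directs RNA to the exosome, had the next lowest p, at 9.98, 14.4 and 11.5 FPKM in sicontrol and at 15.4, 16.2 and 19.7 FPKM in siPOU2F1 (limma adjusted p = 0.204, and 0.119 without siPOU2F1 replicate 3). The libraries were selected for polyadenylated RNA, and the part of any of these genes in the members' levels was not tested.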

How the data were processed

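RNA from HCT116 cells 48 h after transfection with siPOU2F1 or sicontrol was sequenced in 6 libraries, 3 in each group as the sample titles name them. Each library has 1 table of FPKM values that the authors made and deposited. Per the submitters' processing notes StringTie 2.1.2, HISAT2 2.0.4 and Bowtie2 2.2.5 were used with hg38, and the notes tie none of them to a step. For the annotation release, the strand setting and filters the entry is not given in the sources used here. FPKM values hold no counts, so depth and the precision it gives are unknown. A common step that would reveal relative depth was looked for among low members, and the commonest log2 ratio was shared by 0.904% to 1.22% of them. No pair of libraries held identical values.

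Values were used as deposited, as log2(FPKM + 0.5). All rows with a mean of at least 1 FPKM were fitted together with limma 3.58.1 (R 4.3.3), with a mean-variance trend and no term besides group. Benjamini-Hochberg adjustment ran over all 12566 rows. Fold changes are on the log2(FPKM + 0.5) scale. Single values were compared by an exact two-sided permutation test over libraries. The fit was tested on simulated data. Tables and plots were made with Python 3.11.15 (pandas 2.3.3, numpy 2.4.6, matplotlib 3.10.9).

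The rule for members used identifiers only, but this rule and the gene lists were set with earlier results of these data known. Named transcripts were the 2 highest called rises and falls, with a free place filled by the lowest p, the 6 highest means, the on/off members, the 2 with the greatest spread at a mean of at least 5 FPKM and, of the surveillance list, those called and the lowest p. Other transcripts and loci were named after their values were seen. Alternatives changed the pseudocount, filter, scaling, trend, library weights, replicate block, rows fitted and libraries. Locus sums and robust empirical Bayes were added after seeing the data. No sequence of a member was used, since the files hold none.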

Additional observations from a re-analysis of the deposited data

How the results depend on the processing

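With the tested rows and 6 libraries as reported, 2 members were called higher and 1 lower, and 102 had groups that did not overlap. The counts were 3 and 2 of 1144 members with a filter at 0.5 FPKM, 1 and 0 of 167 at 5 FPKM, and 2 and 2 of all members with no filter. Members whose groups did not overlap numbered 185 (16.2%, against 22.2% of all rows), 28 (16.8%, 25%) and 275 (11.9%, 15.9%). Library weights gave 102 called higher and 174 lower of 735 members, when 5952 of all 12566 rows were called. Members fitted alone gave 1 and 0. Locus sums, chosen after seeing the data, gave 0 and 0. Leaving out 1 library gave 1 to 32 higher and 0 to 84 lower, with 140 (19%, against 26.1% of all rows) to 348 (47.3%, 61.7%) not overlapping, and the upper ends came without siPOU2F1 replicate 3. Rows called in the whole table numbered 129 of 12566 as reported. They numbered 124 of 13812 with a filter at 0.5 FPKM, 185 of 8862 at 5 FPKM and 51 of 22782 with no filter. Of the 12566 rows, 70 were called without a trend, 5952 with library weights, 1 with the replicate block and 1 to 2810 without 1 library. The cause of these shifts was not tested.

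No pairing by replicate number was seen in the values, although correlations over so few libraries cannot show how the libraries were prepared. Deviations from the group means correlated between libraries of the same number at 0.04, -0.44 and -0.44 over rows, and the closest pairing was sicontrol replicate 2 with siPOU2F1 replicate 3 (0.53). With the replicate block 1 member was called higher and 0 lower, POU2F1 kept its log2 difference of -0.99 with an adjusted p of 0.332, and 0 genes of the surveillance list were called.

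POU2F1 was also lost with no filter (log2 difference -0.99, adjusted p 0.0704) and ranged from -1.06 to -0.95 without 1 library. The median log2 difference of the tested members was -0.011 with no filter. The members' share of the FPKM sum differed by 0.0087 percentage points (siPOU2F1 minus sicontrol) and turned to -0.064 without the most abundant member, -0.049 without the 10 most abundant, -0.0012 without mitochondrially encoded genes, and -0.020 to 0.039 without 1 library. On/off members numbered 4 at 0.5 FPKM, 9 at any value above 0, and 2 to 5 without 1 library. The difference of MSTRG.26577.1 (0.09) turned to -0.070 with library weights and ranged from -0.084 to 0.22 without 1 library. Of the 51 surveillance genes tested, 7 were higher and 20 lower with library weights, when 5952 of all 12566 rows were called. Without 1 library 0 to 2 were higher and 0 to 11 lower. The upper ends came without siPOU2F1 replicate 3 (3.92% and 21.6%, against 7.95% and 14.4% of all rows). Other pseudocounts and scalings, and robust empirical Bayes, kept the direction of the 10 transcripts chosen by the naming rule and tested under them. Values under these settings are not given for MSTRG.24433.4 and the other transcripts of these loci, and the locus sums were not refitted under them. Low levels and values listed at 0 limit what these 6 libraries can show.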
